A study of Mus musculus with 2 samples.

Results

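The 9 genes Scarb1, Lipe, Soat1, Lipa, Npc1, Npc2, Abca1, Abcg1 and Apoe take up lipoprotein cholesterol, store or release its esters, or pass it out of the cell. They were chosen by gene name, not by a measured value, and all 9 were found among the 21911 protein-coding genes of the GENCODE M21 basic annotation of the mouse genome (mm10, GRCm38.p6). DNase-seq treats nuclei with the enzyme DNase I, which cuts accessible DNA, so that stretches with many cuts mark open chromatin. The tissue was whole adrenal gland of male B6CASTF1/J mice aged 8 to 10 months. These animals are hybrids between the inbred strains C57BL/6J and CAST/EiJ. There was 1 group, made of 2 pools (replicates 1 and 2, called pool 1 and pool 2 here) of 6 biosamples each, with 1 library per pool. Both pools carry the same donor identifier, so the spread between them may be technical, and no treated or control group was available. Where the pools differ, both values are given and no test was made.

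Adrenal cortex cells make steroid hormones from cholesterol and are known for the large store of cholesterol esters in their lipid droplets. In rodents much of it arrives from high-density lipoprotein through the scavenger receptor SR-BI, the product of Scarb1, and the esters are cleaved by hormone-sensitive lipase, the product of Lipe. Esters of lipoproteins taken up by endocytosis are cleaved in the lysosome instead, and the free cholesterol is re-esterified, used or exported.

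The longer of the deposited peak lists held 117371 peaks in pool 1 and 146307 in pool 2, and the footprint lists held 272595 and 319381 protected stretches. The height of a peak is the authors' signal. Its scaling and the depth of the libraries are not stated, so no counting error can be attached to a single value. The tissue label was set against marker genes through their promoters, here the bases up to 1 kb from any transcription start site (TSS) of the gene. All 8 cortex markers, among them Star and Cyp11a1, had a promoter peak in both pools, with a median signal of 4.91, and so did 6 of 6 chromaffin cell markers, with a median of 1.51. Macrophage markers had one in 2 of 7 genes, Cd68 (1.14 and 1.26) and Mrc1 (0.424 and 0.288). Spi1 and Ptprc had one in pool 1 only, and Csf1r, Adgre1 and Fcer1g had none in either pool. Adipocyte markers had one in 3 of 5 genes, Plin1 (2.71 and 3.09), Pparg and Fabp4, with none at Adipoq and Cfd. Endothelial markers had one in 2 of 4, and hepatocyte markers in 0 of 4. The share over all protein-coding genes was 61.9%. In whole tissue, a promoter open in fewer cells and one less open in each cell cannot be told apart.

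Promoters of 8 of the 9 genes held a peak in both pools, against 61.9% of all protein-coding genes. Pool 1 alone gave 9 of 9 (all genes 62.9%) and pool 2 gave 8 of 9 (all genes 65.3%). The exception was Abcg1, whose promoter had a peak in pool 1 only. The members' median promoter signal, taking each gene's highest peak and the mean of the pools, was 6.28, against 3.54 over the 13561 genes with a promoter peak in both pools. By pool the medians were 5.11 and 7.18, against 3.002 and 4.07. The members' medians include Abcg1, which counts as 0 in pool 2. Over all coding genes, where a gene without a peak counts as 0, the median of the mean was 1.30. The levels spanned a wide range, with the genes of lysosomal cholesterol export, Npc2 and Npc1, at the top and Apoe and Abcg1 at the bottom. From high to low the order was Npc2, Npc1, Lipe, Lipa, Soat1, Abca1, Scarb1, Apoe and Abcg1. The 2 pools' values of Npc2 and Npc1 overlapped. So did those of each pair of neighbours from Lipe to Scarb1. Across that stretch, Lipe and Lipa lay wholly above Abca1 and Scarb1, and Soat1 wholly above Scarb1. The gaps between Npc1 and Lipe, between Scarb1 and Apoe and between Apoe and Abcg1 were wider than the spread.

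**Figure D1:**
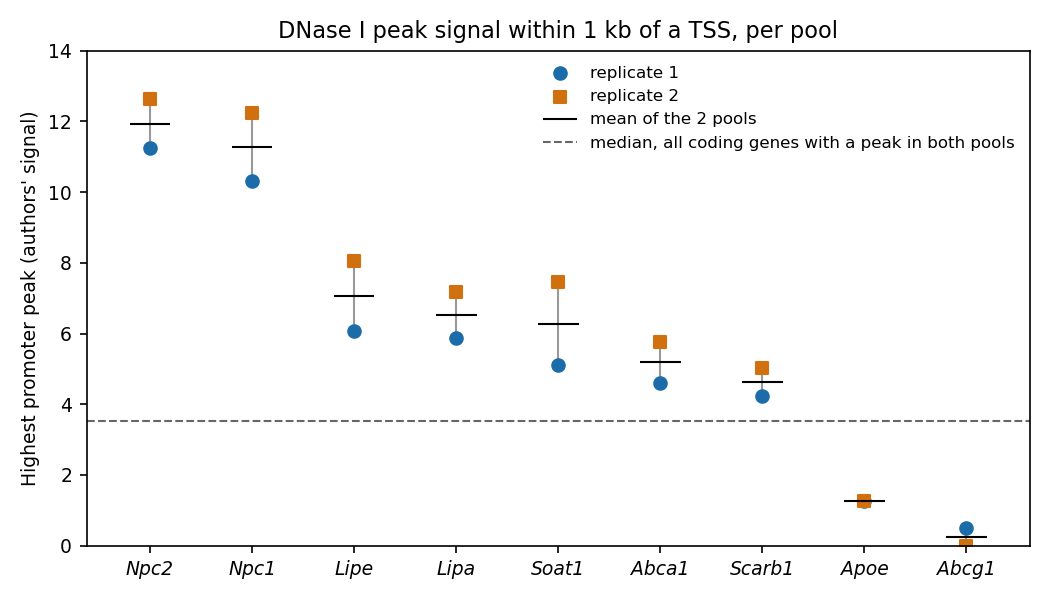
Highest peak within 1 kb of a TSS (authors' signal, y axis) for each gene (x axis, ordered by the mean). Points are pool 1, squares are pool 2, short bars are their mean, and the dashed line is the median of all coding genes with a promoter peak in both pools (3.54). Apoe and Abcg1 lie below the line, and Abcg1 in pool 2 has no peak and is drawn at 0.

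All 8 genes with a promoter peak in both pools had the higher signal in pool 2; over all such genes, 4.55% were lower in pool 2. As log2 of pool 2 over pool 1 the difference ranged from 0.01 at Apoe to 0.55 at Soat1, with a median of 0.27. The median over all genes with a peak in both was 0.38 (SD over genes 0.24), so the members' shift was of the size shared by most promoters.

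Scarb1 (chr5:125277087-125341094, minus strand) encodes the receptor that takes cholesterol esters from high-density lipoprotein without taking up the whole particle. Its promoter peak had a signal of 4.22 in pool 1 and 5.01 in pool 2 (4.62 ± 0.560, mean ± SD, n = 2). This was a middling height, at percentile 64.3 and 61.0 of all promoters with a peak in the respective pool. The promoter was broad rather than high. At a false discovery rate (FDR) of 0.001 or lower, cleavage was listed over 1054 of its 2024 bp in pool 1 and over all 2024 bp in pool 2. The gene held 9 and 12 promoter footprints, 6 of them found in both pools, that is, overlapping by at least 1 bp.

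Scarb1 also had the most distal open regions of the 9 genes by number. Its window, the gene body and 50 kb on either side, held 37 peaks in pool 1 and 50 in pool 2. Of these, 21 merged regions open in both pools lay over 1 kb from every annotated TSS and are called distal here. That is 12.8 per 100 kb, at percentile 98.9 of all coding genes. There were 4 upstream, 11 in introns and 6 downstream, and for 16 of the 21 the nearest coding TSS was that of Scarb1 itself. With the shorter peak list the count fell to 12, still the highest of the 9 genes, but Lipa, with 10, then had slightly more per length. The strongest lay at -3407 bp from the first TSS (chr5:125344361-125344640), with a signal of 6.39 in pool 1 and 7.15 in pool 2 (6.77 ± 0.535, SD, n = 2), higher than the promoter in each pool. It ranked at percentile 99.6 of the 71494 distal regions of the gland. A downstream region at chr5:125252741-125253000 came next, with 5.25 and 7.10.

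The sequence of the -3407 bp region shows where the footprints lie. It is from the C57BL/6J reference (mm10), while the animals carry 1 CAST/EiJ genome copy, and it is written 5′ to 3′ on the minus strand, along the gene. Capitals are bases inside footprints of both pools.
Scarb1 at -3407 bp, chr5:125344361-125344640: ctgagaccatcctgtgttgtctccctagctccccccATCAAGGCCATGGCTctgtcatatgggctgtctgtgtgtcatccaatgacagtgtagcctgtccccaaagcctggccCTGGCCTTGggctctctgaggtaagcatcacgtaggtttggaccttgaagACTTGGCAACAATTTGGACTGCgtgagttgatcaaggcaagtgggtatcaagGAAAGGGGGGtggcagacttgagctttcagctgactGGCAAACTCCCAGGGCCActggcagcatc
The 5 shared footprints cover 74 bp. The first and the second each hold CAAGGCCA, in opposite orientations, at -3505 and -3429 bp. These letters match CAAGGNCA, a relaxed form of the CAAGGTCA motif of the nuclear receptor NR5A1 (steroidogenic factor 1), which directs steroidogenic genes in the cortex. At least 2 matches of the relaxed form within footprints of both pools occurred in 282 of the 96584 shared regions of the gland, or 0.292%. That count was made after the match at Scarb1 had been seen. The relaxed form itself was in 20.7% of the shared regions in the members' windows and in 20.6% of all shared regions. A match is a description of the letters, not evidence that the factor binds. Footprints were extended by 10 bp on each side for all motif matches, and a match had to lie wholly inside the extended footprint.

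A full CAAGGTCA match in footprints of both pools lay in a weaker intron region at 15641 bp into Scarb1 (region signal 1.68 and 1.90). Here the capitals mark the motif, with 40 bp of context on each side, on the minus strand.
Scarb1 intron, chr5:125325409-125325496: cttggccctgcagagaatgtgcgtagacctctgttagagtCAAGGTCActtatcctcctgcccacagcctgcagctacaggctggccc
An SREBP motif, TCACNCCAC, read by the sterol-sensing SREBP factors, was matched once, at 1853 bp into the gene (region signal 1.27 and 1.53), but in no footprint.

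**Figure D2:**
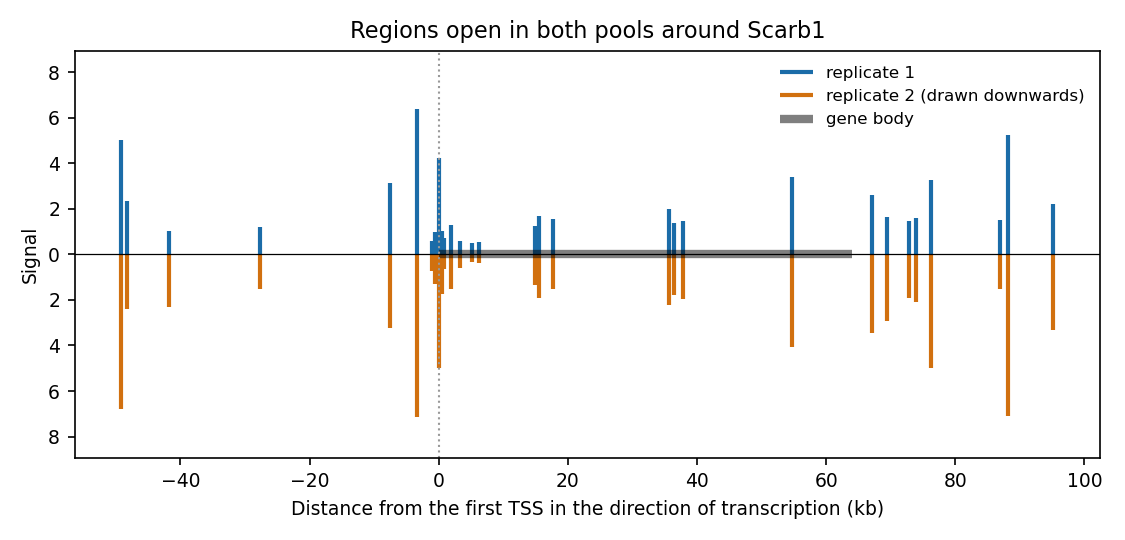
Regions open in both pools around Scarb1, by distance of their midpoint from the first TSS in kb (x axis, positive in the direction of transcription). Bars give the authors' signal, upwards for pool 1 and downwards for pool 2, and the grey bar is the gene body. The tallest bar in both pools stands just upstream of the TSS, at -3407 bp.

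Lipe (chr7:25379527-25398710, minus strand) encodes the cytosolic lipase that frees cholesterol from stored esters. Its highest promoter peak had a signal of 6.09 in pool 1 and 8.05 in pool 2 (7.07 ± 1.39, SD, n = 2), with 14 and 16 footprints over its 5 TSS positions, 8 of them in both pools. Most of that height came from 1 internal site. The peak lay in an exon of the annotation, with its midpoint 738 bp (pool 1) and 668 bp (pool 2) downstream of the TSS at position 25396379. With a promoter of 500 bp in place of 1 kb the mean fell to 2.86. The highest peak over that TSS had 2.34 and 3.38. The most upstream TSS positions, 25398709 and 25398710, had no peak within 1 kb in either pool. The strongest of its 8 distal regions was in an intron (chr7:25386301-25386580, 4.37 and 5.09) and held a GC box, GGGGCGG, in footprints of both pools. Another lay at -3441 bp, with 3.33 and 4.24. With the shorter peak list the count was 5.

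Soat1 (chr1:156424525-156474331, minus strand) encodes the enzyme that esterifies free cholesterol for storage. A single promoter peak was present in each pool, 5.11 and 7.45 (6.28 ± 1.66, SD, n = 2), the largest spread among the 9 genes. It held 3 footprints in both pools and sat at the upstream TSS, with the second TSS, 156466804, having no peak. Around Soat1 there were 8 distal regions, 5.34 per 100 kb. The highest was an intron region of 1.52 and 2.27 (chr1:156464341-156464700), at percentile 86.5 of all distal regions, with an AP-1 motif, TGANTCA, in footprints of both pools. With the shorter peak list the count fell to 2.

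Lipa (chr19:34492318-34527474, minus strand) encodes lysosomal acid lipase, which cleaves the esters of lipoproteins taken up whole. Its promoter had 5.89 and 7.18 (6.53 ± 0.914, SD, n = 2) and 5 footprints in each pool, 3 shared. The FDR table gave the opposite order of the pools, with 993 bp at 0.001 or lower in pool 1 and 478 bp in pool 2. Among genes with a promoter peak in both pools, 17.8% had fewer such bases in pool 2. The promoter is poor in CpG, with 0.27 of the CpG count that its base composition would give. Of genes under 0.6 on that scale, 35.5% had a promoter peak in both pools. The sequence upstream of the TSS is given on the minus strand, with bases of shared footprints in capitals.
Lipa before the TSS, chr19:34527475-34527640: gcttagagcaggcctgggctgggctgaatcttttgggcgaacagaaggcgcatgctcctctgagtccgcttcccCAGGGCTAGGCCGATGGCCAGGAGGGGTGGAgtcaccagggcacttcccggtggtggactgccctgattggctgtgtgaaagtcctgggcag
Its 31 bp footprint run is followed by a CCAAT match, CCAATNA on the opposite strand, at -25 bp.

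Introns of Lipa carried most of its distal signal, with 5 of the 10 distal regions. The strongest, 9123 bp into the gene, had 3.26 and 4.90 and held an adjacent pair of AP-1 matches in footprints of both pools. Capitals are again shared footprints, on the minus strand.
Lipa intron, chr19:34518241-34518460: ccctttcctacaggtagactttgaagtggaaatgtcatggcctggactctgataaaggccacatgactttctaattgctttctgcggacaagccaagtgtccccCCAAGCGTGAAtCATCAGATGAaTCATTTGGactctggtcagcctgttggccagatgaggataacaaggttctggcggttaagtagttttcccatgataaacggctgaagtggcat
At 10049 bp a region of 1.55 and 1.49 held CAAGGTCA, all 8 bases in footprints of both pools, shown with the motif in capitals on the minus strand.
Lipa intron, chr19:34517381-34517468: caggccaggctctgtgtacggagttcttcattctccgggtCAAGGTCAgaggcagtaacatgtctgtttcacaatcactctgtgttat

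The genes of lysosomal export, Npc2 and Npc1, had the highest promoter signal of the set. Npc2 (chr12:84754562-84773152, minus strand) encodes the soluble protein that carries cholesterol inside the lysosome to the membrane protein NPC1. Its promoter peak had a signal of 11.3 in pool 1 and 12.6 in pool 2 (11.9 ± 0.970, SD, n = 2), at percentile 96.7 and 96.0. There were 10 and 12 footprints, 8 of them shared. The stretch upstream of its TSS holds a pair of GC boxes, at -50 and -72 bp, both in footprints of both pools. It is given on the minus strand, with the bases of shared footprints in capitals.
Npc2 before the TSS, chr12:84773153-84773240: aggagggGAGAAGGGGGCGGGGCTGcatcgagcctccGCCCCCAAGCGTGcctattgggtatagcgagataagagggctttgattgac
The window of Npc2 held 5 distal regions (4.22 per 100 kb, the lowest of the 9 genes, at percentile 59.3 of all coding genes). Their median signal was 0.839, against 0.818 over all distal regions, and the strongest, at -11529 bp (1.20 and 2.21), contained a match of the CTCF motif (CCA, 2 bases, AGG, 1 base, GGC) in footprints of both pools.

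Npc1 (chr18:12189692-12236400, minus strand) encodes the membrane protein that exports cholesterol from the lysosome. Its promoter had 10.3 and 12.2 (11.3 ± 1.37, SD, n = 2), at percentile 95.0 and 95.2, with 5 and 10 footprints and 5 of them shared. The strongest of its 9 distal regions by the mean of the pools was intronic (chr18:12224021-12224240, 2.59 and 3.38) and held AP-1 matches. In pool 1 a downstream region (chr18:12187461-12187780, 2.66 and 2.87) was slightly higher. Downstream, at the promoter of the neighbouring gene Rmc1 (9.09 and 11.5), the window held the members' 1 match of the CLEAR motif, TCACGTGA, the element of lysosomal genes. It lay in footprints of both pools, at a gene that is not a member.

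The promoters of the efflux genes stood far apart, Abca1 open in both pools and Abcg1 hardly so. Abca1 (chr4:53030787-53159895, minus strand) encodes the transporter that passes cholesterol to lipid-poor apolipoprotein, and Abcg1 (chr17:31057675-31117988, plus strand) the one that passes it to high-density lipoprotein. The Abca1 promoter had 4.59 and 5.77 (5.18 ± 0.834, SD, n = 2), with 7 and 8 footprints, 5 shared. At Abcg1 the highest peak within 1 kb of a TSS was 0.498 in pool 1, and pool 2 had none. Cleavage at the Abcg1 promoter passed an FDR of 0.05 over 193 bp in pool 1 and over 0 bp in pool 2. With a promoter of 2 kb its mean became 1.36, from a region centred 1244 bp after the first TSS. That region is not counted as distal, since it lies within 1 kb of a small rRNA gene annotated in the intron. The Abcg1 promoter is rich in CpG (0.69 of the expected count, GC content 69.3%), and of genes at or above 0.6, 8.12% did not have a promoter peak in each pool.

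Both efflux genes had 2 open regions with an LXR motif, GGTNA and GGTCA with 5 unspecified bases between them, a direct repeat bound by the liver X receptors, which sense oxysterols and are known to induce both genes. This form of the motif was written from knowledge of such elements, the one at Abca1 among them, so finding it there is not independent. Its last letters, GGTCA, are shared with the NR5A1 motif. Matches were found in 5 of the 135 shared regions in the members' windows (3.70%) and in 0.282% of all shared regions. At least 1 such region was present for 3 of the 9 genes (Abca1, Abcg1 and Npc1; all genes 2.52%). At least 2 were present for Abca1 and Abcg1, and for 12 of all coding genes (0.0548%), a count added after the values were seen. The 4 sites, with 40 bp on each side and the motif in capitals, read as follows.
Abca1 at -60 bp, chr4:53159908-53160002, plus strand: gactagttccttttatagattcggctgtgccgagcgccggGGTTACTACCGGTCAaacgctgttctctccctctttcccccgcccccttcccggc
Abca1 at 1015 bp, intron, chr4:53158833-53158927, plus strand: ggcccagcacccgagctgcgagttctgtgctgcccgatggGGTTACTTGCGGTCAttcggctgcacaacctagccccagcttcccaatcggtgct
Abcg1 at 1201 bp, intron, chr17:31058841-31058935, minus strand: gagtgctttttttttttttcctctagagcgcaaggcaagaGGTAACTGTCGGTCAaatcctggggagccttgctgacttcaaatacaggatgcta
Abcg1 at 15806 bp, intron, chr17:31073446-31073540, plus strand: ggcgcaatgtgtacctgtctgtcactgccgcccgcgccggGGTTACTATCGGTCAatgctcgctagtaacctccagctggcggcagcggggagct
The regions holding them had 4.59 and 5.77 at the Abca1 promoter and 2.70 and 3.04 in its intron. At Abcg1 they were lower, with 1.24 and 1.48 at the first site and 0.773 and 1.18 at the second. None of the 4 matches lay wholly in footprints of both pools. The last lay wholly in a footprint of pool 2 only, and there only with the 10 bp extension. Without the extension, 11 of its 15 bases lay inside footprints of either pool and 4 inside footprints of both. Over the gland 18.4% of regions with the motif had it in footprints of both.

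**Figure D3:**
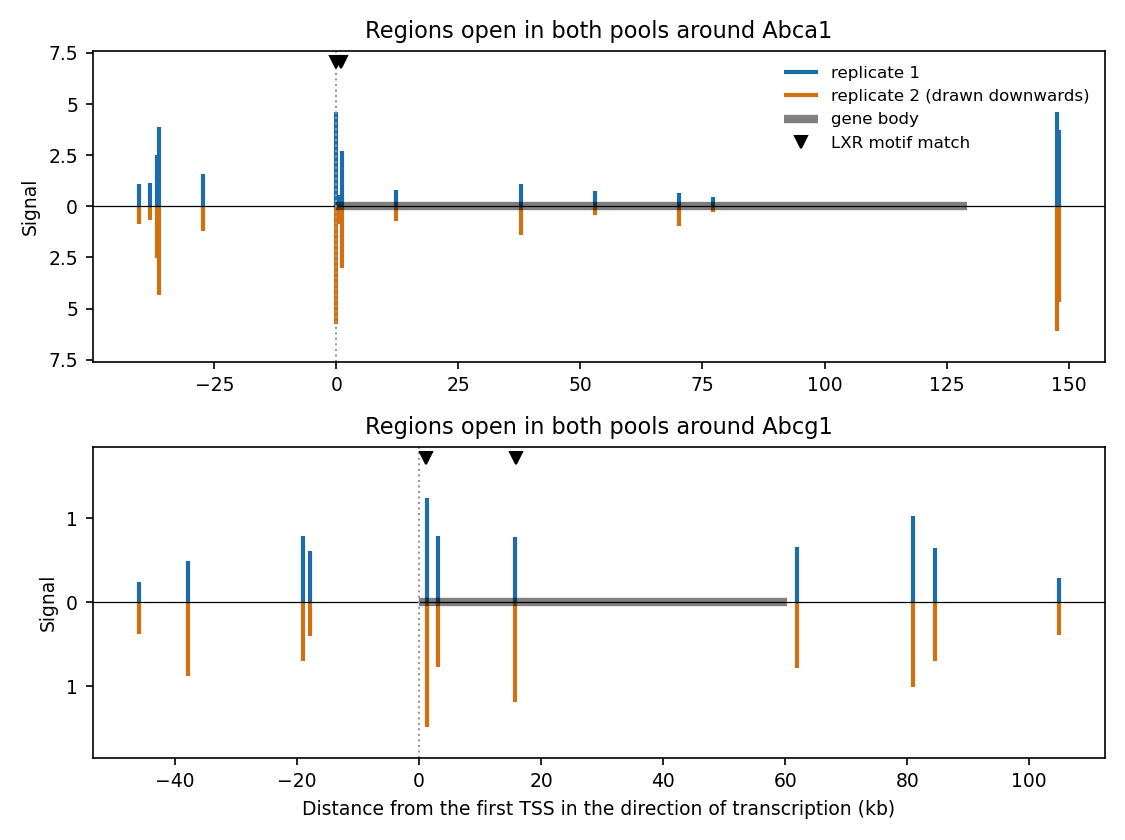
Regions open in both pools around Abca1 (top) and Abcg1 (bottom), by distance from the first TSS in kb (x axis), with the authors' signal upwards for pool 1 and downwards for pool 2. The scales of the panels differ. Triangles mark LXR motif matches, 2 per gene, and the grey bar is the gene body. At Abcg1 no bar stands at the TSS, and the first LXR match coincides with its tallest bar.

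Away from the promoters, Abca1 had 10 distal regions, 9 of them nearest to its own TSS. The strongest lay at -36306 bp (chr4:53196081-53196320, 3.89 and 4.34). A weaker one with 1.10 and 0.887 held CAAGGTCA at -40498 bp in footprints of both pools. Abcg1 had 10 distal regions as well, but the highest by the mean of the pools reached 1.03 and 1.01 and was nearest to Tff2, a trefoil factor gene downstream. In pool 2 the intron region with the second LXR match was higher, at 1.18. With the shorter list the count at Abcg1 fell to 4.

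Apoe (chr7:19696109-19699188, minus strand) encodes apolipoprotein E, a ligand of lipoprotein receptors. It had the lowest promoter peak found in both pools, 1.263 in pool 1 and 1.271 in pool 2 (1.27 ± 0.00549, SD, n = 2), at percentile 23.6 and 20.04. The shorter list has this peak in pool 1 only, and the mean is then 0.632. At an FDR of 0.001 or lower, 252 bp were listed in pool 1 and 0 in pool 2, where the lowest FDR was 0.00308. Around this low promoter the chromatin was open. The window had 8.73 distal regions per 100 kb (percentile 92.7), but of its 9 regions only 1 was nearest to Apoe, and with the shorter list 3 remained. The promoter of Tomm40, a mitochondrial import gene upstream, reached 13.9 and 14.96 (chr7:19715461-19716020). The strongest distal region, 30107 bp downstream and nearest to Clptm1, had 3.98 and 4.88. It is shown on the minus strand, with shared footprints in capitals.
Apoe window, chr7:19668981-19669180: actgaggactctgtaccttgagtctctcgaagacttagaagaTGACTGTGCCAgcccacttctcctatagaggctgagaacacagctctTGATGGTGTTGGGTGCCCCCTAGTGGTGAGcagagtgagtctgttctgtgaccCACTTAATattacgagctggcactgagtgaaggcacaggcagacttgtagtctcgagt
The middle footprint holds a CTCF match on the plus strand, CCACTAGGGGGC. At -45515 bp, inside Nectin2, a region of 2.79 and 2.72 held CAAGGTCA within the 10 bp extension of footprints of both pools, with 0 of its 8 bases inside shared footprints themselves.

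The share of promoter bases with strong cleavage ordered the genes differently from peak height. At an FDR of 0.001 or lower it was highest for Npc2 in pool 1 (55.7%) and for Scarb1 in pool 2 (100%), and 0% for Abcg1 in both. Over all genes whose promoters had a peak in each pool, the medians were 27.9% and 35.7%. Lipe and Soat1 had low shares (11.5% in pool 1 for each, 19.5% and 13.9% in pool 2), and both have TSS positions without a peak. At least 1 promoter footprint found in both pools was present at 8 of the 9 genes (all genes 56.5%), Abcg1 being the exception. The members' median was 5 such footprints, against 2 over all genes and 4 over genes with a promoter peak in both. CpG observed over expected reached 0.6 at 6 of the 9 promoters (all genes 46.8%). Lipe, Lipa and Apoe were below it. The value of Lipe (0.0548) is that of its first TSS, which had no peak within 1 kb in either pool. At its TSS at 25396379, which had a peak in both pools, it was 0.571.

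**Figure D4:**
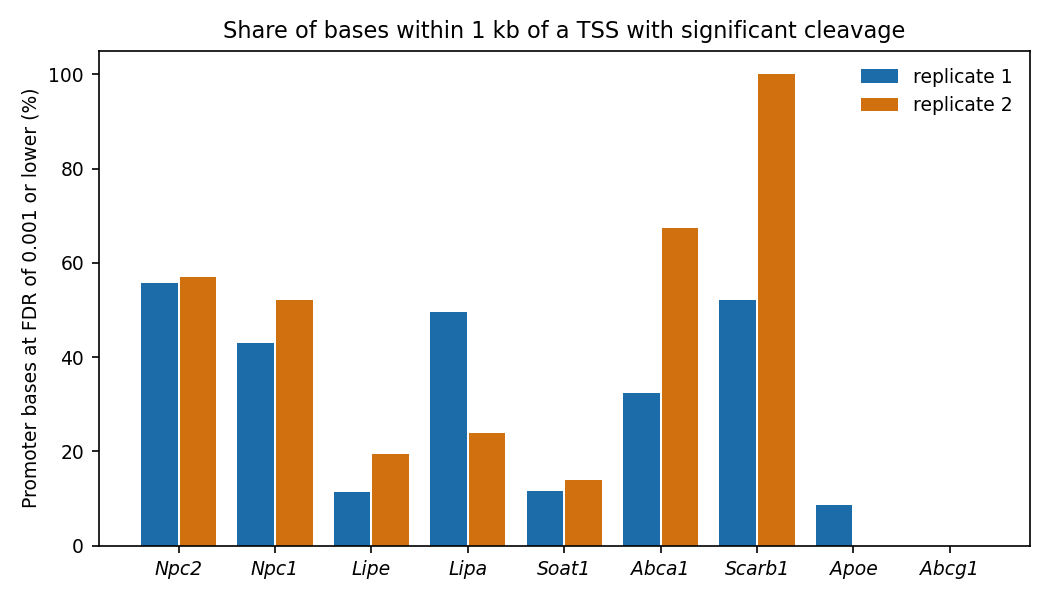
Share of bases within 1 kb of a TSS with cleavage at an FDR of 0.001 or lower (y axis, percent) in pool 1 and pool 2 (bars), genes in the order of promoter signal. Scarb1 reaches 100% in pool 2, Lipa is lower in pool 2 than in pool 1, and Abcg1 is at 0% in both.

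Distal regions were present in the windows of all 9 genes (all genes 86.4%). There were 90 in all, 38 upstream, 30 in introns, 22 downstream and 0 in exons, and for 50 of them the nearest coding TSS was the member's own. The members' median was 6.24 per 100 kb, against 3.49 over all genes. It depends on the peak list, and was 3.37 with the shorter one. The median over all genes was computed with the longer list only and cannot be set against 3.37. A distal region was stronger than the promoter in both pools at 2 of the 8 genes with a promoter peak in both, Scarb1 and Apoe (all such genes 31.7%). The windows of 4 of the 9 genes (Npc2, Abcg1, Lipa and Apoe) had fewer peaks in pool 2 than in pool 1, although pool 2 had more peaks in all. Over all genes this share was 15.6%. The differences were small: in pool 1 and pool 2 the peaks numbered 9 and 8 at Npc2 and 15 and 13 at Abcg1. They numbered 20 and 19 at Lipa and 23 and 18 at Apoe.

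**Figure D5:**
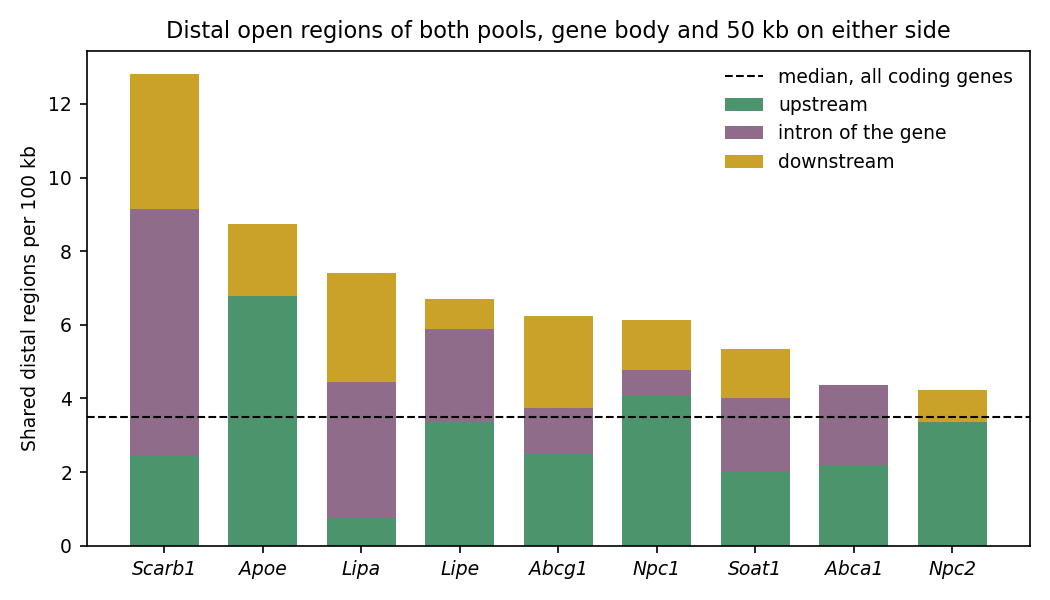
Distal regions open in both pools per 100 kb of window (y axis) for each gene, split by place relative to the gene. The dashed line is the median of all coding genes (3.49). Scarb1 stands highest, at 12.8, and every gene lies above the line.

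Apart from the LXR repeat, the common motifs were about as frequent in the members' windows as in all shared regions. CAAGGTCA was in 8 of 135 shared regions (5.93%, against 6.67% of all), and in footprints of both pools in 4 (2.21% of all regions), the ones given above at Scarb1, Lipa, Abca1 and Apoe. A peak with it was present in each pool for 5 of the 9 genes (all genes 28%), namely those 4 and Npc2. A window with more peaks has more chances of a match. Together the windows of the 9 members held 164 peaks in pool 1 and 205 in pool 2. Single member windows ranged from 9 (Npc2) to 37 (Scarb1) in pool 1, and from 8 to 50 in pool 2 at the same genes. The median single window of all genes held 10 and 12. Per peak the motif was in 4.27% and 3.41% in the members' windows, against 4.85% and 4.82% of all peaks. AP-1 was in 29 regions (21.5%, against 23.5%), the GC box in 16 (11.9%, against 11.5%), CTCF in 7 (5.19%, against 4.12%) and the SREBP motif in 2 (1.48%, against 1.14%). The glucocorticoid receptor motif, AGAACA and TGTNCT 3 bases apart, was in 0 (all 0.159%). The matches in shared regions were sought on both strands over the whole region, and those in single peaks up to 75 bp from the peak's midpoint. For base composition and motifs, a promoter was taken from 250 bp before to 50 bp after the TSS of the gene's longest transcript. At each of the members this was the first TSS. In these promoters a GC box was found at 7 of the 9 genes. Over all genes the share was 30.4%, and over genes with a promoter peak in both pools 42.8%. The 7 include Abcg1, and Lipe at a TSS without a peak within 1 kb in either pool. The LXR repeat was found at Abca1 only (all genes 0.164%), where, as said above, finding it is not independent.

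Of 55 other genes of the pathway, 45 had a promoter peak in both pools (all genes 61.9%) and 9 in neither. Their median mean signal was 2.90, against 1.30 over all genes, where a gene without a peak counts as 0. Over genes with a promoter peak in both pools the median was 3.54. Genes of intracellular cholesterol transport and of its control all had one, 11 of 11 in each group. Osbpl2, an oxysterol-binding protein gene, was highest by the mean of the pools, with 15.4 and 17.5. In pool 1 Osbp was slightly higher (15.5 and 17.1). Srebf2, which encodes the main activator of cholesterol synthesis, had 11.1 and 13.3. Uptake genes had one in 7 of 8. Pdzk1, whose product anchors the SR-BI receptor in liver, had none. Ester and lipid hydrolases had one in 6 of 7, highest at Nceh1 (5.80 and 8.08) and absent at the hepatic lipase gene Lipc. Lipid droplet genes had one in 5 of 6, highest at Plin3 (6.43 and 8.21) and absent at Cidec. The pair of other esterification genes was low: Soat2, the form known from liver and intestine, had 0.773 and 0.751, and Lcat, of plasma, had none. Efflux genes had one in 2 of 4, with Abca7 at 4.64 and 6.20 and none at Abcg5 and Abcg8, which form the sterol exporter of liver and gut. Apolipoprotein genes had one in 2 of 6, highest at Apoc4 (2.73 and 3.04), with none at Apoa1, Apoc2 and Apod.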

How the data were processed

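Per the labels and the readme texts, the deposited peaks, footprints and FDR table were made per library from filtered alignments on mm10. Which aligner and callers were used, and with which settings, was not given in the sources used here. The signal deposited by the authors for each peak is a height of 0 or more with no stated scaling. The FDR that the authors deposited per interval is an adjusted p-value, listed only under 0.05, and the footprint p-value column holds 0.01 throughout. The other deposited peak columns for score, p-value and summit hold constants and were not used.

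Genes came from GENCODE M21 basic on 21 chromosomes, 1 record per symbol. A gene's promoter signal is its highest peak overlapping 1 kb on either side of any TSS, or 0. Regions shared by the pools are merged peaks holding a peak of each (overlap of at least 1 bp). Windows are the gene body and 50 kb on either side, and no 2 members' windows overlap each other. Sequence came from the RefSeq GRCm38.p6 genome. The 12 motifs were matched as letters on both strands. The members, lists and motifs were chosen with earlier results of these data known. The text names all 9 members, each member's strongest distal region by mean signal, regions with an NR5A1, SREBP, LXR or CLEAR motif in footprints of both pools, and in each pathway role the gene with the highest mean promoter signal and those without a promoter peak. For the uptake role, the highest gene is not reported here. Other genes and regions named were chosen after their values were seen. No test was possible with 1 group, so lists are given by counts and medians beside all genes. Alternatives changed the promoter width, the window, the peak list, the overlap and the motif, or left out a pool. Python 3.11.15, NumPy 2.4.6, pandas 2.3.3, pysam 0.24.0 and samtools 1.23.1 were used, and the overlap and motif code was tested on simulated data.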

Additional observations from a re-analysis of the deposited data

How the results depend on the processing

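Members with a peak at the promoter in each pool ranged from 7 (shorter list) to 9 (promoter of 2 kb), and that of the other pathway genes from 41 to 47. Leaving out a pool gave 8 to 9 members, 45 to 46 pathway genes and a median promoter signal of 5.11 to 7.18. As a percentile among promoters with a peak, which is another scale, that median was 75.5. The median of distal regions per 100 kb (6.24) became 5.17 within 100 kb, 3.37 with the shorter list and 4.77 with the top 50% of peaks by signal, and 7.55 to 8.73 with 1 pool, where no overlap is asked for. The median of shared promoter footprints (5) was 0 where the same start and end were required and 5 to 8 with 1 pool. The count of members with CAAGGTCA in a peak of each pool (5) was 3 with the shorter list, 2 within 20 kb and 5 to 6 with 1 pool. The promoter signal of single members stayed within the spread of the pools for 8 of 9 genes in each of 3 settings. The exceptions were Lipe at 500 bp, Abcg1 at 2 kb and Apoe with the shorter list. At Abcg1 the shorter list has no promoter peak, so its signal became 0, which lay within the spread of the pools (SD 0.352). No paired analysis was possible because there is 1 group and no comparison between groups. Library depth is not stated, so no limit of detection can be given for a missing peak.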

Other observations

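Besides Abca1 and Abcg1, the coding genes with at least 2 open regions holding the LXR motif within their windows included Scd2, Scd3 and Scd4, neighbouring genes of stearoyl-CoA desaturases with 2 each, whose windows can hold the same regions. The others were Cyth3, Esr1, Gm21887, Mid1, Pip5k1b and Rapgef5 with 2 each, and Gm20388 with 3 of the 418 shared regions in its window. These names were read after the values were seen.

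Beside Lipa, the promoter of Ch25h, which encodes the enzyme that makes 25-hydroxycholesterol, had a low peak (chr19:34475041-34475320, 0.632 and 0.671) with a cAMP response element, TGACGTCA, in footprints of both pools. The members' windows held 2 regions with that motif (1.48%, against 1.16% of all), and the other lay at a promoter upstream of Scarb1 (2.33 and 2.42).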
